A study of Mus musculus with 39 samples.

Results

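Growing wild-type and Flnc-knockout C2C12 cells were compared across all expressed genes. C2C12 is a mouse myoblast line that divides in serum and fuses into myotubes after serum withdrawal. The wild type (WT) was the unedited line, and the knockout (FlncKO) carried a CRISPR/Cas9 edit guided to the first exon of Flnc. Both were kept in DMEM with 10% fetal bovine serum, L-glutamine and penicillin-streptomycin, re-plated every 48 h, and collected before the switch to 2% horse serum (day 0). The libraries were chosen by their labels: 4 of the wild type and 4 of the knockout, 8 of the 39 in the series, which also holds both lines on days 1, 2, 4 and 6. The labels do not say whether the knockout line is 1 clone, and do not say whether replicates 1, 3, 4 and 5 were separate cultures. The p-values therefore measure the spread between libraries of the same line and day, pooled over all 39, which may be technical. A difference between the lines cannot be told apart from a difference between the cells that founded them.

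Filamins are large dimeric proteins that crosslink actin filaments and bind integrins, signalling proteins and chaperones. Filamin A is found in most cells, whereas filamin C is the muscle form, known from the Z-disc, the myotendinous junction and the sarcolemma, and already made by dividing myoblasts. In muscle it works with the Xin proteins and with a chaperone complex that removes strained filamin.

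The total per library was between 19977809 and 28902526 counts, with a two-sided p of 0.314 between the lines by an exact permutation test. Mitochondrial genes held 1.17% to 2.52% of the counts of a library. The labelled cell type could be checked on myoblast markers: the myogenic factor Myod1 was at 134, 137, 254 and 168 CPM (counts scaled to the TMM-adjusted size of the library) in wild-type replicates 1, 3, 4 and 5 and at 213, 163, 179.8 and 130.0 CPM in knockout replicates 1, 3, 4 and 5, an order kept for all values below. The muscle intermediate filament gene Des was at 1168, 1265, 3685 and 1628 CPM in the wild type and 1642, 1699.7, 2629 and 1209 CPM in the knockout. Both genes were present in every library, and their groups overlapped. Of 14 myoblast and satellite cell markers, 13 were tested. In the knockout 6 of these were lower and 0 higher at an adjusted p under 0.05 (edgeR quasi-likelihood test). Their median log2 difference was -0.97, and for 5 of them every knockout library was below every wild-type library. Over all genes tested, 9.09% were lower, and the groups did not overlap for 17.1%. The sums over the list were 3417.5 to 6701.7 CPM in the wild type and 2247.0 to 3733.7 CPM in the knockout, with overlap. A pair of libraries stood apart. Wild-type replicate 4 had the fewest genes with a count of its group (14565, against 15033 to 15106), the lowest level of the proliferation marker Mki67 (111 CPM, against 347 to 405) and the highest level of Des. Knockout replicate 1 differed from the other knockout libraries over chromosomes 2 and 16, as given with the chromosomes below.

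Flnc itself was at 480.0, 519, 1004 and 686 CPM in the wild type and 25.3, 16.5, 54.9 and 20.7 CPM in the knockout, with no overlap (log2 difference -4.52, SE 0.45, adjusted p = 6.30e-10, edgeR quasi-likelihood test with Benjamini-Hochberg adjustment, as for every adjusted p below). A residue of Flnc mRNA was therefore counted in every knockout library; the counts do not show whether it carries the edit. Flna, the filamin A gene, was at 3624, 4815, 8914 and 4137 CPM against 3342, 1746, 6021 and 2377 CPM, with overlapping groups (log2 difference -0.67, SE 0.48, adjusted p = 0.205; adjusted p = 0.0102 with the replicate block). An exact permutation test on log2 CPM, whose smallest possible two-sided p is 0.0286 with 4 against 4 libraries, gave 0.0286 for Flnc and 0.2 for Flna. Replicate 4 had the highest Flna and Flnc of its group in both lines.

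Of 13780 genes tested, 2142 (15.5%) differed at an adjusted p under 0.05: 890 (6.46%) were higher and 1252 (9.09%) lower in the knockout. The median log2 difference over all genes tested was -0.01, and the groups of 4 libraries did not overlap for 17.1% of all genes tested. The median called gene was 2.44-fold higher or 2.78-fold lower, while 270 genes were higher and 499 lower by at least 4-fold. In the knockout 93 of the lower genes had no count in any library, and 27 of the higher genes had no count in any wild-type library. With the replicate number as a block, 1817 genes were higher and 2179 lower. The count of higher genes fell to 520 without wild-type replicate 3 and to 476 without wild-type replicate 5, while leaving out wild-type replicate 4, which stood apart, raised the counts to 1294 higher and 1585 lower. Leaving out knockout replicate 1 gave 759 higher and 1110 lower. Of the 2142 genes, 1134 (391 higher, 743 lower) were called in each of the 8 fits that left out 1 library.

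**Figure D1:**
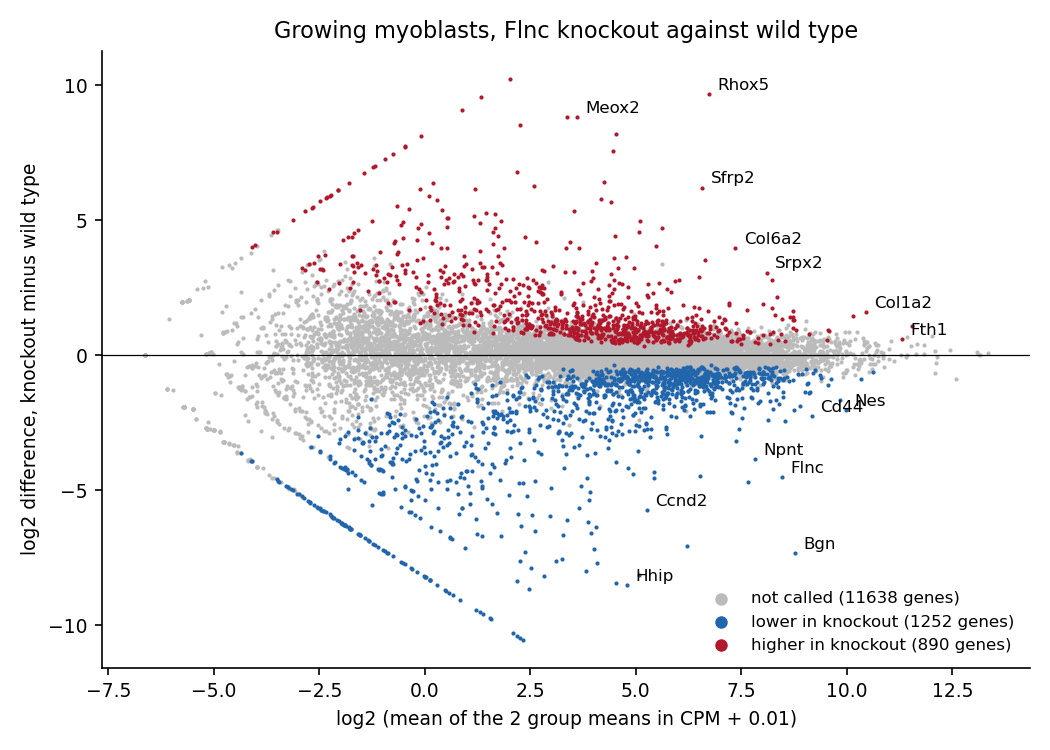
Log2 difference between knockout and wild type (vertical axis) against the log2 mean level in CPM (horizontal axis, mean of both group means with 0.01 CPM added) for the 13780 genes tested, 1 point per gene; red points are the 890 genes called higher, blue points the 1252 called lower and grey points the rest. The straight edges at low levels are genes without a count in 1 of the groups, whose fitted difference depends on the prior count.

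Among genes with a mean of at least 5 CPM and no overlap, 418 were higher and 608 lower. The most raised ones were close to absent in the wild type. Rhox5, an X-linked homeobox gene of the reproductive tract, stood at 0.143, 0.278, 0.194 and 0.395 CPM in the wild type and 123, 311, 181 and 239 CPM in the knockout (log2 difference 9.67, SE 0.36, adjusted p = 4.27e-13). Meox2, a homeobox factor of the somite and limb muscle, was at 0, 0.104, 0 and 0.0717 CPM against 7.14, 30.5, 14.5 and 45.2 CPM (log2 difference 8.82, SE 0.64, adjusted p = 1.09e-06). Magea6, of the MAGE family of germ cell and tumour antigens, had 0, 0, 0.194 and 0 CPM in the wild type and 8.83, 21.8, 24.8 and 26.8 CPM in the knockout; reads of this gene may be shared with near-identical Magea copies, so its level is uncertain. Further down the same ranking, Kcnj15, an inwardly rectifying potassium channel, rose from 0.607 to 35.2 CPM, Hpgd, which inactivates prostaglandins, from 0.804 to 41.6 CPM, and Pde3a, a cyclic nucleotide phosphodiesterase, from 0.545 to 22.4 CPM. Rspo2, Cntn3, Tph2 and Sfrp2 complete the 10 most raised protein-coding genes.

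The most lowered genes were likewise nearly lost from the knockout. Mcpt8, a mast cell and basophil protease gene, was at 8.96, 5.73, 4.46 and 24.6 CPM in the wild type and 0, 0, 0.0854 and 0 CPM in the knockout. Hhip, a membrane protein that binds and blocks hedgehog ligands, was at 63.3, 49.3, 28.3 and 79.1 CPM against 0.137, 0, 0.342 and 0.0793 CPM (log2 difference -8.52, SE 0.53, adjusted p = 7.22e-09). Ngfr, the p75 neurotrophin receptor, was at 17.5, 10.1, 6.89 and 21.5 CPM against 0, 0, 0.171 and 0 CPM. Each was counted in every wild-type library and in at most 3 of the 4 knockout libraries. Gap43, Add2, Chmp4c, Setbp1 and Cdh11 were as strongly lowered, as were Ccdc73 (from 17.1 to 0.0729 CPM) and Myo7b, an unconventional myosin of microvilli (from 19.0 to 0.103 CPM).

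The start regions of the 3 most raised and the 3 most lowered of these genes with an entry in RefSeq's table of start regions are printed to show what lies at genes that were all but silent in 1 of the lines; Gap43 had no entry. Each runs from 250 bases before to 50 bases after the annotated start, 5′ to 3′ on the gene's strand, on GRCm38.p6, with CG dinucleotides in capitals. The regions are chrX:37754358-37754657 (plus strand) for Rhox5, chr12:37108290-37108589 (plus) for Meox2, chrX:154926066-154926365 (minus) for Magea6, chr14:56085148-56085447 (minus) for Mcpt8, chr8:80057959-80058258 (minus) for Hhip and chr11:95587649-95587948 (minus) for Ngfr.
Rhox5: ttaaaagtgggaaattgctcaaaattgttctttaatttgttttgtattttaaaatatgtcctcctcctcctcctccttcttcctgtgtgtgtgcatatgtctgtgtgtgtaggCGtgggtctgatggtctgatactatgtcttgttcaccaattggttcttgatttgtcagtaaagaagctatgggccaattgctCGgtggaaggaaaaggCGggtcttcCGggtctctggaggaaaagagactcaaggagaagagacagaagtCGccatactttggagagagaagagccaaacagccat
Meox2: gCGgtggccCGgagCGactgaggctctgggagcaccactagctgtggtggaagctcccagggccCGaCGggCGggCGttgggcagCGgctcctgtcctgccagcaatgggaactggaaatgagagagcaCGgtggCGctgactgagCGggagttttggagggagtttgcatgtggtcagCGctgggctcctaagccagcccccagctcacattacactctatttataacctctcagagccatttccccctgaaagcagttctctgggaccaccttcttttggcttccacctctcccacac
Magea6: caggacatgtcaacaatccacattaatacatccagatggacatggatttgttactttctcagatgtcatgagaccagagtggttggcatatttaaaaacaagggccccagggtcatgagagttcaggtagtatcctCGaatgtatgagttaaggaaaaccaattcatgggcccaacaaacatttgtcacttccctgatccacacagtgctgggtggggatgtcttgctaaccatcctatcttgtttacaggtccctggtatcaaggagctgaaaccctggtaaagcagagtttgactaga
Mcpt8: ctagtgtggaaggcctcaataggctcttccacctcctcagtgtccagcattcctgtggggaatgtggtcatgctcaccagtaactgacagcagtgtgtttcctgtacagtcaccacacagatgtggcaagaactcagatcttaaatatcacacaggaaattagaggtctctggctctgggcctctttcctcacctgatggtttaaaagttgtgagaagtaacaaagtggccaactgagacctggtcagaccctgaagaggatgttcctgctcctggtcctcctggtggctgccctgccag
Hhip: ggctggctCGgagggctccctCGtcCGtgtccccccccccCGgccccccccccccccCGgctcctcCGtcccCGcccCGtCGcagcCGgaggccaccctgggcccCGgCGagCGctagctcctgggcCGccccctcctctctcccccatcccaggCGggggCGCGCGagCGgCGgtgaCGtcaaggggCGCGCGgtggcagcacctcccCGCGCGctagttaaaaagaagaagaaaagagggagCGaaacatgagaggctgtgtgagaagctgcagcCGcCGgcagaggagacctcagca
Ngfr: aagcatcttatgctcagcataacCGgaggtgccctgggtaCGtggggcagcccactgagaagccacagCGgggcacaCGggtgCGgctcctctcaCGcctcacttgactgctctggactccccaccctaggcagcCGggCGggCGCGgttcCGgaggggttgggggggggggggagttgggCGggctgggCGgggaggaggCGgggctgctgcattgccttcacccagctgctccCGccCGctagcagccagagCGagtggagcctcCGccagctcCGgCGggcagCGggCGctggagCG
These 300-base windows held 5 CG dinucleotides at Rhox5, 12 at Meox2, 1 at Magea6, 0 at Mcpt8, 30 at Hhip and 23 at Ngfr.

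The median over 10509 tested genes with an entry was 21 CG dinucleotides in the window (quartiles 12 and 28). It was 17 for the 691 higher genes with an entry and 20 for the 938 lower ones. Among genes changed by at least 16-fold the medians were 8.5 (62 higher genes) and 11 (170 lower genes). Letter motifs were searched on both strands of the same windows, as a description only. CAGCTG, a form of the E-box that myogenic factors bind, was in 15.5% of windows of all tested genes, 14.9% of the higher and 20.4% of the lower genes. GGAATG, the core of TEAD sites, was in 12.2%, 13.7% and 13.2%; ACGTG, within hypoxia response elements, in 25.6%, 23.6% and 21.9%; TATAAA in 7.35%, 9.41% and 9.17%; and the CArG box of serum response factor in 1.42%, 1.16% and 1.71%. For the 33 lowered genes of the Z-disc, sarcomere, fusion and endplate lists with an entry, the shares were 42.4% for CAGCTG, 36.4% for GGAATG and 33.3% for TATAAA. The members of these lists that were not lowered were not read in this way. These shares therefore cannot be set apart from those of the lists as a whole. Of the printed windows, Ngfr held CAGCTG and ACGTG, Mcpt8 held GGAATG and Meox2 held TATAAA.

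By absolute difference the list of genes was another. The largest losses in CPM included those of Nes, Bgn, Cd44, Msn, Flnc, Ctsl, Nid1, Hspb1 and Tnc. Nes, the intermediate filament nestin of proliferating myoblasts and neural progenitors, was at 1360.4, 1631, 1561 and 1921 CPM in the wild type and 429, 368, 497 and 287 CPM in the knockout (log2 difference -2.03, SE 0.20, adjusted p = 5.48e-07). Cd44, the hyaluronan receptor, was at 1000.2, 1008, 623 and 1179.7 CPM and 191, 189, 213 and 206 CPM (log2 difference -2.26, SE 0.20, adjusted p = 4.04e-08). The 4 knockout values of Cd44 lay within a narrow span, all under the lowest wild-type value. Msn, which encodes the actin-membrane linker moesin, fell less far, from 1923 to 1245 CPM (log2 difference -0.63, SE 0.15, adjusted p = 0.0151). It was not called without knockout replicate 3 or without wild-type replicate 5. Hspb1, a small heat shock protein that binds filamin C, was at 389, 454, 1238 and 661 CPM against 206, 185, 180.0 and 101 CPM, and Ctsl, a lysosomal cysteine protease, fell from 1031 to 475 CPM.

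The largest gains in CPM were those of Col1a2, Fstl1, Fth1, Rps20, Col6a1, Srpx2, Ass1, Id3, Rpl22 and S100a4. Srpx2, a secreted sushi-repeat protein, was at 52.98, 51.7, 94.4 and 37.0 CPM in the wild type and 453, 426, 657 and 434 CPM in the knockout (log2 difference 3.06, SE 0.32, adjusted p = 4.03e-08). Fstl1, a secreted glycoprotein related to follistatin, was at 512, 702, 861 and 360.1 CPM against 1798, 1296, 2179.5 and 1391 CPM (log2 difference 1.45, SE 0.32, adjusted p = 0.00396). Fstl1 lies on chromosome 16, and after the differences were centred on the median of each chromosome its adjusted p was 0.0545. Ass1, which makes argininosuccinate, rose from 205 to 638 CPM (log2 difference 1.64, SE 0.45, adjusted p = 0.0199), a call lost without wild-type replicate 1 or replicate 5. The calls of the ribosomal protein gene Rps20 (adjusted p = 0.0498), of the ferritin gene Fth1 (adjusted p = 0.0422) and of Id3 (adjusted p = 0.0431) were each kept in only 2 of the 8 fits without 1 library. The call of S100a4 was lost without knockout replicate 3 or wild-type replicate 1, 3 or 5, each left out in turn. Those of Rpl22, Rps20 and Id3 were lost after the same centring by chromosome. Ribosomal protein and ferritin genes have processed pseudogenes, so that their counts may be shared.

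**Figure D2:**
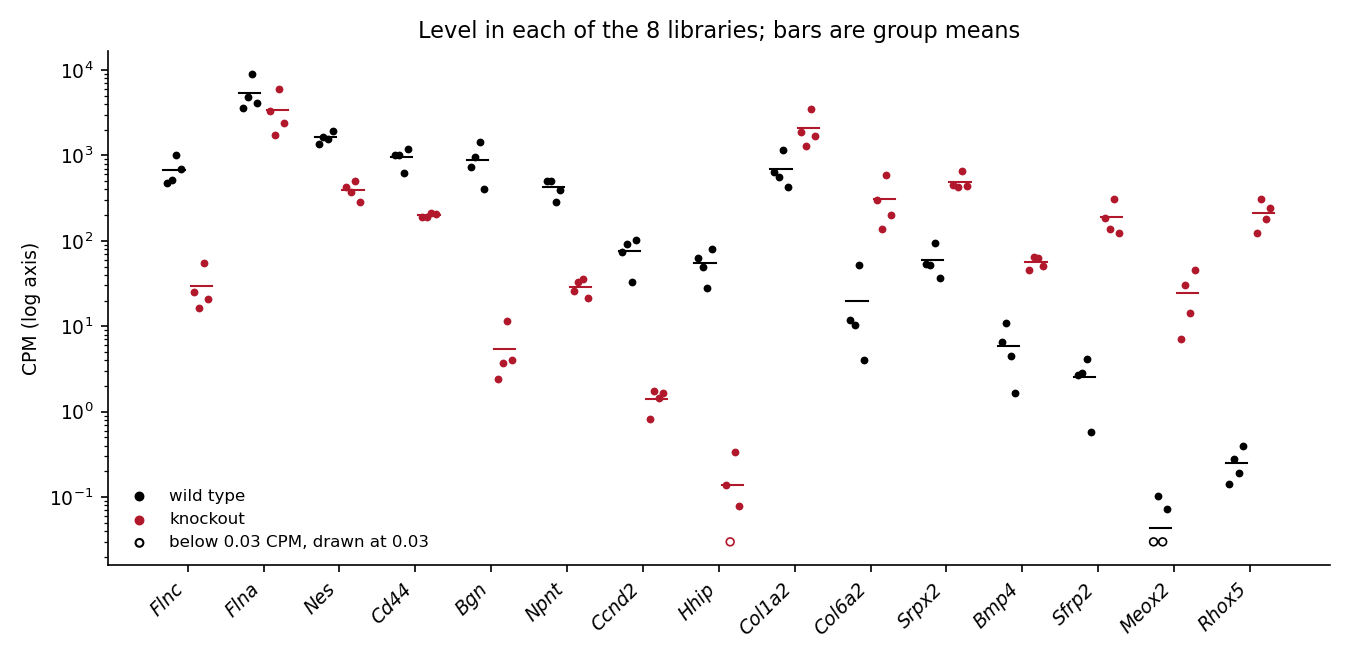
Level in CPM (log axis) of 15 genes in each of the 8 libraries; black points are wild-type and red points knockout libraries, horizontal bars are group means, and open circles are values under 0.03 CPM. The groups separated for every gene shown except Flna.

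Genes of the extracellular matrix were called in both directions. Of 32 collagen genes and collagen-modifying enzymes tested, 10 were higher and 2 lower, with a median log2 difference of 0.71 against -0.01 over all genes. The count of higher genes was 6 without wild-type replicate 5 and 6 without knockout replicate 4. Both type VI collagen genes named here rose: Col6a1 was at 38.4, 27.5, 217 and 19.9 CPM in the wild type and 525, 226, 1012 and 340.4 CPM in the knockout, and Col6a2 at 11.7, 10.2, 52.3 and 4.02 CPM and 301, 136, 593 and 202 CPM. Wild-type replicate 4 had the highest wild-type value and knockout replicate 4 the highest knockout value of both genes, and the groups did not overlap (log2 difference 3.98, SE 0.88, adjusted p = 4.44e-05 for Col6a2). Col1a2, of fibrillar type I collagen, was at 632, 561, 1168 and 426 CPM and 1887, 1283, 3518 and 1667 CPM (log2 difference 1.58, SE 0.44, adjusted p = 0.00107). Col16a1 rose from 12.6 to 81.4 CPM and Col8a1 from 68.4 to 182 CPM, while Col18a1 fell from 179.6 to 56.2 CPM and the crosslinking enzyme gene Loxl2 from 36.1 to 6.84 CPM.

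Basement membrane genes, of the sheet that surrounds muscle cells, were called mostly lower. Of 24 tested, 7 were lower and 4 higher. Npnt, which encodes the integrin ligand nephronectin, was at 508, 496, 288 and 394 CPM in the wild type and 25.8, 33.3, 35.9 and 21.2 CPM in the knockout (log2 difference -3.86, SE 0.26, adjusted p = 4.78e-08). Nid1 (nidogen, from 745 to 203 CPM), Lama5 (from 304 to 60.6 CPM) and Lamb1 (from 324 to 109 CPM) fell as well. Lama4, the laminin chain of blood vessels and peripheral nerve, was at 0.717, 2.15, 7.38 and 0.861 CPM against 73.2, 40.5, 84.1 and 60.6 CPM (log2 difference 4.57, SE 0.76, adjusted p = 3.33e-05). Each of the 4 knockout values exceeded each wild-type value.

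Among 37 matricellular proteins and proteoglycans, 10 were higher and 6 lower, or 14 and 11 with the replicate block. Without wild-type replicate 5 the count of higher genes was 6. Bgn, the small proteoglycan biglycan, was at 727, 950.4, 1420.3 and 405 CPM in the wild type and 2.40, 3.71, 11.5 and 4.05 CPM in the knockout (log2 difference -7.34, SE 0.60, adjusted p = 2.81e-07). The adhesion-modulating glycoprotein gene Tnc was at 393, 796, 543 and 777 CPM against 115, 91.1, 176 and 84.9 CPM. Of the small leucine-rich proteoglycans in this list, 4 chosen after their values were seen rose: Prelp from 3.69 to 95.1 CPM, Aspn from 2.03 to 43.4 CPM, Omd from 1.95 to 8.89 CPM and Ogn from 119 to 533 CPM. Lum, of the same kind, had no count, and the differences of Dcn (adjusted p = 0.0516) and Fmod (adjusted p = 0.0578) did not pass the test. Postn, the periostin gene, was at 5.63, 7.85, 1.46 and 5.31 CPM against 159, 69.6, 54.3 and 54.5 CPM, and Mfap5, of the elastic microfibril, rose from 1.52 to 23.6 CPM. Of 40 matrix proteases and their inhibitors, 12 were lower and 4 higher, with 2 higher without knockout replicate 4 or wild-type replicate 5. The urokinase gene Plau fell from 184 to 42.2 CPM and its receptor gene Plaur from 131 to 41.3 CPM. Adamts6 fell from 26.4 to 4.56 CPM and the gelatinase gene Mmp2 from 66.8 to 10.0 CPM. Mmp10 had 5.88, 3.61, 1.55 and 1.65 CPM in the wild type and no count in the knockout, at least 103-fold lower if the whole knockout group is given 3 counts, a limit that covers counting error only. Of the counts above 0 at day 0, 61.9% were even; if each fragment was counted as 2 reads, this bound and those given for Psmb9 and Gzme below would be smaller by a factor of 2.

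Integrin and focal adhesion genes were called lower more than higher, whereas few genes of the actin list were called. Of 37 integrin and focal adhesion genes, 8 were lower and 1 higher, or 18 and 2 with the replicate block, and 2 were higher without knockout replicate 3 or wild-type replicate 1. Lims2, which encodes the LIM protein PINCH2 of the integrin-linked kinase complex, was at 57.0, 76.5, 109.7 and 83.4 CPM in the wild type and 10.5, 2.11, 2.65 and 0.793 CPM in the knockout (log2 difference -4.33, SE 0.76, adjusted p = 1.37e-05). Pxn, the paxillin gene, was at 66.4, 69.7, 82.9 and 89.7 CPM against 19.2, 24.2, 34.7 and 25.9 CPM (log2 difference -1.57, SE 0.20, adjusted p = 1.79e-05), and the tyrosine kinase gene Src at 77.5, 103, 173 and 136 CPM against 45.1, 30.2, 49.9 and 32.3 CPM. Ptk2b, a kinase related to focal adhesion kinase, fell from 43.2 to 2.73 CPM, and Itgb5 rose from 247 to 605 CPM. After the differences were centred on the median of each chromosome, 0 genes of this list were higher and 9 lower. Of 34 actin and serum response factor target genes, 1 was higher and 2 lower, or 3 and 6 with the block, shares in the unblocked fit under those over all genes tested (6.46% higher and 9.09% lower). The lower count was 4 without knockout replicate 4, 3 without wild-type replicate 4 and 1 without knockout replicate 3 or 5 or wild-type replicate 1, 3 or 5, each left out in turn. Myh10, which encodes nonmuscle myosin IIB, was the larger loss (209, 158, 117 and 181 CPM against 40.4, 24.7, 43.0 and 46.7 CPM, log2 difference -2.10, SE 0.27, adjusted p = 1.07e-04). Mylk, a myosin light chain kinase gene on chromosome 16, rose from 0.953 to 5.96 CPM. The call of Vcl (vinculin, log2 difference -0.73, SE 0.31, adjusted p = 0.0456) was kept in 3 of the 8 fits without 1 library. Of 26 regulators and targets of YAP and TAZ, 5 were lower and 1 higher, or 8 and 1 with the block. Ankrd1 (from 802 to 314 CPM), Amotl1 (from 161 to 68.4 CPM), Nt5e (from 7.64 to 0.541 CPM) and Igfbp3 (from 3.07 to 0.0213 CPM) were among the lower ones, and Tgfb2 was the higher one, a call lost without knockout replicate 4 or wild-type replicate 5.

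Z-disc proteins and partners of filamin C had 12 of 37 tested genes lower and 2 higher. Xirp1, which encodes the filamin C ligand Xin, was at 37.0, 53.3, 65.0 and 64.0 CPM in the wild type and 2.58, 10.5, 6.28 and 12.1 CPM in the knockout (log2 difference -2.80, SE 0.53, adjusted p = 1.74e-05). Its relative Xirp2 was at 5.66, 10.6, 8.93 and 13.4 CPM against 0, 0.103, 1.11 and 0.238 CPM. Synpo2l fell from 55.1 to 17.9 CPM, Pdlim3 from 53.6 to 14.0 CPM and the small heat shock gene Cryab from 471 to 262 CPM, while Sgcd, the delta-sarcoglycan gene, rose from 7.39 to 18.5 CPM. Of 33 heat shock and chaperone-assisted autophagy genes, 3 were lower and 2 higher, or 7 and 3 with the block. The unblocked shares were near those over all genes tested (9.09% lower and 6.46% higher). The higher count was 1 without knockout replicate 1, 3 or 4 or wild-type replicate 1, 3 or 5. Hspb8, part of the complex that clears strained filamin, fell from 105 to 65.3 CPM (log2 difference -0.68, SE 0.18, adjusted p = 0.0193), a call lost without knockout replicate 5 or wild-type replicate 4. Among 31 dystrophin-associated and membrane repair genes, 4 were higher and 3 lower, the lower share being near that over all genes tested. The count of higher genes was 8 with the block and 7 without wild-type replicate 4. Sgca, the alpha-sarcoglycan gene, was at 10.3, 8.86, 18.2 and 11.1 CPM against 57.5, 24.8, 55.5 and 20.9 CPM (log2 difference 1.71, SE 0.44, adjusted p = 1.15e-04), and Dtna, the alpha-dystrobrevin gene, fell from 41.6 to 17.0 CPM.

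Every called gene of the sarcomere and fusion lists was lower in the growing knockout. In bulk RNA, fewer differentiating cells and less RNA in each such cell cannot be told apart. Of 39 sarcomere genes, 16 were lower and none higher (edgeR quasi-likelihood test; 18 lower with DESeq2; 9 without knockout replicate 3, 9 without knockout replicate 5 and 5 without wild-type replicate 5). Their summed level ran from 1886 to 3265 CPM in the wild type and from 1629.9 to 2223 CPM in the knockout, so that the sums overlapped. Myom2, of the M-band, was at 42.9, 30.8, 29.5 and 60.05 CPM against 17.8, 8.55, 9.31 and 4.52 CPM, without overlap (log2 difference -2.02, SE 0.47, adjusted p = 0.00292). Tnni1 (slow troponin I) was at 8.39, 10.6, 47.3 and 81.8 CPM against 3.19, 5.98, 10.8 and 3.37 CPM, with overlap. Myog, the myogenin gene, was at 11.8, 14.1, 25.1 and 54.0 CPM against 0.549, 6.18, 12.6 and 4.36 CPM (log2 difference -2.16, SE 1.04, adjusted p = 0.00886), a call lost without wild-type replicate 5. Of 29 myogenic transcription factors and partners, 5 were lower and 4 higher. The lower count was 2 without wild-type replicate 5, 3 without knockout replicate 1 and 3 without knockout replicate 3. The higher count was 2 without knockout replicate 4, 2 without wild-type replicate 3 and 2 without wild-type replicate 5. Tead4, a partner of YAP and target of myogenic factors, was called in all 8 fits without 1 library, at 27.1, 29.1, 32.7 and 45.4 CPM in the wild type and 4.81, 8.19, 8.20 and 10.8 CPM in the knockout (log2 difference -2.07, SE 0.29, adjusted p = 3.67e-06). Myf5 was at 42.5 ± 10.7 (SD, n = 4) against 32.7 ± 17.8 CPM (adjusted p = 0.534), and Myod1 had a log2 difference of -0.02 (SE 0.26, adjusted p = 0.972). Pax7 (from 4.75 to 0.720 CPM) and Mef2c (from 15.4 to 5.69 CPM) were lower with overlapping groups. The Pax7 call was lost without wild-type replicate 1, and that of Mef2c in 4 of the 8 fits without 1 library.

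Of 29 adhesion and fusion genes, 8 were lower and none higher (1 higher with DESeq2, 2 higher and 11 lower with the block, 1 higher without wild-type replicate 1). Itga7, the laminin-binding integrin alpha-7 of muscle, was at 655, 613, 965 and 937 CPM in the wild type and 223, 354, 303 and 317 CPM in the knockout (log2 difference -1.41, SE 0.22, adjusted p = 1.39e-04). Jam2 was at 437, 427, 196 and 454 CPM against 167, 114, 75.1 and 114 CPM, and the fusogen gene Mymk (myomaker) at 17.5, 14.3, 54.5 and 61.1 CPM against 6.18, 6.70, 17.4 and 4.56 CPM. The groups separated for Itga7 and Jam2 and overlapped for Mymk. Cdh15 (M-cadherin) fell from 526 to 269 CPM and Myof (myoferlin) from 728 to 358 CPM. Of 35 genes of the endplate and of excitation-contraction coupling, 8 were lower and 2 higher, or 15 and 3 with the block, and 1 was higher without knockout replicate 1, knockout replicate 4 or wild-type replicate 5. The acetylcholine receptor genes Chrna1 (from 747 to 289.7 CPM), Chrnb1 (from 78.1 to 36.9 CPM) and Chrnd (from 40.8 to 5.22 CPM) were all lower, as was Dok7 (from 17.6 to 1.70 CPM), which clusters them. Among 18 inhibitors of myogenic factors, Id3 and Heyl were higher and none was lower. Id3 stood at 212, 192, 387 and 141 CPM against 599, 792, 599 and 469.9 CPM (log2 difference 1.40, SE 0.34, adjusted p = 0.0431) and Heyl at 3.94, 3.96, 13.5 and 5.52 CPM against 18.8, 15.5, 55.9 and 23.1 CPM. Neither was called without wild-type replicates 1, 3 or 5, each left out in turn, or without knockout replicate 4; 1 gene was higher without knockout replicate 1 or 3, and 1 lower without knockout replicate 1. Id1 (log2 difference 0.24, adjusted p = 0.622) and Id2 (0.03, adjusted p = 0.963) did not pass the test.

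Signalling genes were called in both directions in most pathways. Of 43 TGF-beta and BMP genes, 6 were higher and 6 lower, and 10 were higher with the block; without knockout replicate 4, and likewise without wild-type replicate 5, 3 were higher. The ligand gene Bmp4 was at 6.49, 10.9, 4.51 and 1.65 CPM in the wild type and 45.2, 64.5, 63.1 and 50.8 CPM in the knockout (log2 difference 3.24, SE 0.57, adjusted p = 3.48e-07). Nog, which encodes the BMP antagonist noggin, was at 3.51, 5.42, 4.90 and 2.55 CPM against 0, 0.309, 0.384 and 0.159 CPM (log2 difference -4.28, SE 0.55, adjusted p = 1.98e-05). Bambi, a pseudoreceptor, rose from 0.600 to 4.19 CPM, and Ltbp2, a latent TGF-beta binding protein, fell from 233 to 67.7 CPM. Of 39 Wnt genes, 6 were higher and 7 lower, both shares above those over all genes tested (6.46% higher and 9.09% lower). The secreted modulators Rspo2 (from 0.149 to 45.7 CPM) and Sfrp2 (from 2.56 to 189 CPM) rose, and Dkk2 fell (from 18.7 to 1.04 CPM). Rspo2 receptors split, with Lgr6 at 78.1, 76.3, 121 and 55.1 CPM against 7.62, 0.928, 3.12 and 2.50 CPM and Lgr4 rising from 52.3 to 133 CPM. Of 11 hedgehog genes, Hhip alone was called, 1 was higher and 3 lower with the block, and 2 were lower without wild-type replicate 4. Of 21 Notch genes, the target gene Heyl was called, while 3 were higher and 5 lower with the block. Leaving out wild-type replicate 4 gave 2 higher Notch genes, and leaving out knockout replicate 5 gave 1 lower. In the unblocked fit the shares of the hedgehog and Notch lists were near or under those over all genes tested (6.46% higher and 9.09% lower).

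Of 52 growth factor and receptor genes, 13 were lower and 4 higher. The higher share was near the 6.46% over all genes tested, and the lower share was above the 9.09%. Erbb3, a neuregulin receptor, was at 12.8, 12.0, 14.2 and 24.8 CPM in the wild type and 1.31, 1.44, 3.67 and 2.38 CPM in the knockout (log2 difference -2.85, SE 0.40, adjusted p = 1.27e-05). The epidermal growth factor receptor ligands Hbegf (from 50.6 to 10.9 CPM) and Areg (from 13.5 to 3.85 CPM), the hepatocyte growth factor receptor gene Met (from 139.5 to 56.2 CPM) and Vegfa (from 124 to 49.3 CPM) fell, and so did Fgfr1 (from 362 to 236 CPM). Lifr (from 41.9 to 139 CPM), Fgf7 (from 5.83 to 21.0 CPM), Nrg1 (from 13.8 to 35.8 CPM) and Pdgfra (from 11.0 to 27.6 CPM) rose. The cytokine gene Lif fell from 5.40 to 0.823 CPM while its receptor gene rose. Of 33 chemokine and cytokine genes, 6 were lower and 3 higher, or 9 and 6 with the block. The chemokine scavenger gene Ackr3 was at 102, 72.9, 80.0 and 110.0 CPM against 18.3, 12.2, 8.67 and 19.2 CPM (log2 difference -2.64, SE 0.30, adjusted p = 4.03e-08). The monocyte chemokine genes Ccl9 (from 2.85 to 30.2 CPM), Ccl7 (from 16.6 to 114 CPM) and Ccl2 (from 22.7 to 70.1 CPM) rose. Of 33 interferon response and antigen presentation genes, 6 were higher and 2 lower. Psmb9, an immunoproteasome subunit, had no count in the wild type and 2.27, 0.928, 1.20 and 1.27 CPM in the knockout (at least 49.6-fold higher), Psmb8 rose from 0.132 to 1.34 CPM and the peptide transporter gene Tap1 from 1.02 to 5.71 CPM. The lower count was 4 with the block, 4 without knockout replicate 1 and 1 without wild-type replicate 1.

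Axon guidance and neurite genes were among the lists with most losses. Of 46 tested, 15 were lower and 3 higher (21 and 5 with the block), with a median log2 difference of -0.51. Gap43, a growth cone protein, was at 21.9, 39.1, 45.7 and 76.2 CPM in the wild type and 0, 0.103, 0.427 and 0 CPM in the knockout. The netrin receptor gene Unc5c was at 16.2, 17.4, 16.9 and 10.8 CPM against 0.343, 0.412, 0.512 and 0.714 CPM (log2 difference -4.93, SE 0.25, adjusted p = 1.82e-06), Epha4 fell from 19.3 to 2.60 CPM, and the ephrin gene Efnb2 fell from 63.6 to 9.35 CPM. Semaphorin genes Sema3c (from 34.1 to 5.37 CPM), Sema7a (from 57.5 to 9.43 CPM) and Sema6a (from 22.7 to 5.43 CPM) fell, as did the receptor gene Plxna1 (from 273 to 90.7 CPM). Epha7 rose from 16.3 to 90.1 CPM and Sema3f from 0.479 to 6.16 CPM. Of 24 cadherins and related adhesion receptors, 7 were lower and 2 higher. Pcdh1 was at 78.7, 63.9, 137 and 99.2 CPM against 20.7, 15.0, 22.6 and 20.7 CPM (log2 difference -2.26, SE 0.27, adjusted p = 3.48e-07), and Cdh11 and Cntn3 are among the genes ranked above. Of 21 potassium channel genes, 7 were higher and 1, Kcnn3, was lower. Kcnn3 was not called without knockout replicate 1, and 2 were lower with the block and without knockout replicate 5 or wild-type replicate 4. Besides Kcnj15 these included Kcnab1 (from 1.91 to 11.2 CPM), Kcnab2 (from 0.335 to 5.74 CPM) and the calcium-activated channel gene Kcnn1 (from 1.80 to 7.02 CPM).

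Proliferation genes were not called. None of 45 DNA replication genes and none of 45 mitosis genes passed the edgeR quasi-likelihood test in either direction or DESeq2's. Every knockout library was below every wild-type library for 2 replication genes and above for 1. In the mitosis list this held for 1 gene below and 0 above. The shares without overlap were under the 17.1% over all genes tested. At an unadjusted p under 0.05 there were 2 replication genes and 1 mitosis gene. With the replicate block 3 replication genes were higher and 1 lower, and 1 mitosis gene each way, and without knockout replicate 1 1 replication gene was higher. The summed mitosis genes ran from 6174 to 8743 CPM in the wild type and from 5314 to 9124 CPM in the knockout. Mki67 was at 347, 405, 111 and 359 CPM against 166, 214, 234 and 289 CPM (adjusted p = 0.763). Among regulators of the G1 phase, Ccnd2, which encodes cyclin D2, was at 74.5, 91.2, 32.6 and 103 CPM in the wild type and 0.824, 1.75, 1.45 and 1.67 CPM in the knockout (log2 difference -5.73, SE 0.44, adjusted p = 1.13e-09), with no overlap. Ccnd1 (cyclin D1) was at 528, 649.6, 406 and 765 CPM against 186, 479.6, 381 and 541 CPM (adjusted p = 0.435), and the inhibitor gene Cdkn1a at 233, 167, 289 and 287 CPM against 219.9, 149, 190.2 and 119 CPM (adjusted p = 0.255). Of 21 such genes, Ccnd2, Cdk6 (from 102 to 47.2 CPM) and E2f8 (from 88.3 to 37.9 CPM) were lower, and 1 was higher and 4 lower with the block. Of these 3 genes only Ccnd2 was called without knockout replicate 1 or 3 or wild-type replicate 1, 3 or 5, each left out in turn. Of 29 p53 targets, 5 were higher and 2 lower. The higher share was above the 6.46% over all genes tested, and the lower share was under the 9.09%. The death receptor gene Fas was at 4.01, 3.48, 5.97 and 2.22 CPM against 43.5, 13.6, 15.2 and 10.7 CPM, Sesn1 rose from 23.5 to 47.9 CPM and Plk2 fell from 162 to 78.2 CPM (log2 difference -1.05, SE 0.13, adjusted p = 4.02e-05). The lower count was 5 with the block, 4 without wild-type replicate 4 and 1 without knockout replicate 4, wild-type replicate 3 or wild-type replicate 5.

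In energy metabolism, 8 of 37 glycolysis and hypoxia-response genes were lower and 3 higher. The lower share was above the 9.09% over all genes tested, and the higher share was near the 6.46%. The lactate exporter gene Slc16a3 was at 21.1, 16.7, 43.3 and 18.0 CPM in the wild type and 1.10, 0, 0.427 and 0.317 CPM in the knockout (log2 difference -5.66, SE 0.79, adjusted p = 1.52e-06). Slc16a1, a lactate transporter, fell from 198 to 96.5 CPM, hexokinase gene Hk2 from 127 to 37.3 CPM, the glucose transporter gene Slc2a1 from 211 to 118 CPM and Pfkp from 177 to 78.1 CPM, while Pfkm rose from 70.8 to 116 CPM. The calls of Slc2a1 and Pfkm were kept in 4 and 2 of the 8 fits without 1 library. None of 54 nuclear respiratory chain genes was called by edgeR, with 4 higher and 1 lower by DESeq2, 15 at an unadjusted p under 0.05, 6 higher without wild-type replicate 4, 1 higher and 1 lower without knockout replicate 4 and 18 higher and 1 lower with the block. Their median log2 difference was 0.42. Of 38 glutathione and redox genes, 5 were higher and 3 lower, or 11 and 7 with the block, and 8 were higher without wild-type replicate 4. In the unblocked fit the lower share was near the 9.09% over all genes tested, and the higher share was above the 6.46%. The selenoprotein gene Gpx3 was at 19.0, 11.3, 42.2 and 8.90 CPM against 0.137, 0, 1.02 and 0 CPM (log2 difference -6.10, SE 0.94, adjusted p = 2.00e-06), whereas the glutathione transferase genes Gsta3 (from 0.154 to 4.79 CPM) and Gstt1 (from 0.641 to 6.42 CPM) and the epoxide hydrolase gene Ephx1 (from 137 to 465 CPM) rose. Ppargc1a, the coactivator of mitochondrial genes, was at 4.52, 2.99, 0.825 and 3.48 CPM against 0, 0.103, 0 and 0 CPM (log2 difference -6.74, SE 0.57, adjusted p = 6.17e-06). Of 40 genes of the unfolded protein and integrated stress responses, 1 was higher and 2 lower, or 4 and 10 with the block. The unblocked shares were under those over all genes tested (6.46% higher and 9.09% lower). Atf3 was at 21.5, 20.4, 36.5 and 27.4 CPM against 4.19, 3.92, 5.04 and 2.78 CPM (log2 difference -2.73, SE 0.26, adjusted p = 8.53e-05). Chac1 was the other lower gene, a call lost without knockout replicate 1, knockout replicate 5 or wild-type replicate 4, and Dnajb11 the higher one, a call kept in 1 of the 8 fits without 1 library.

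**Figure D3:**
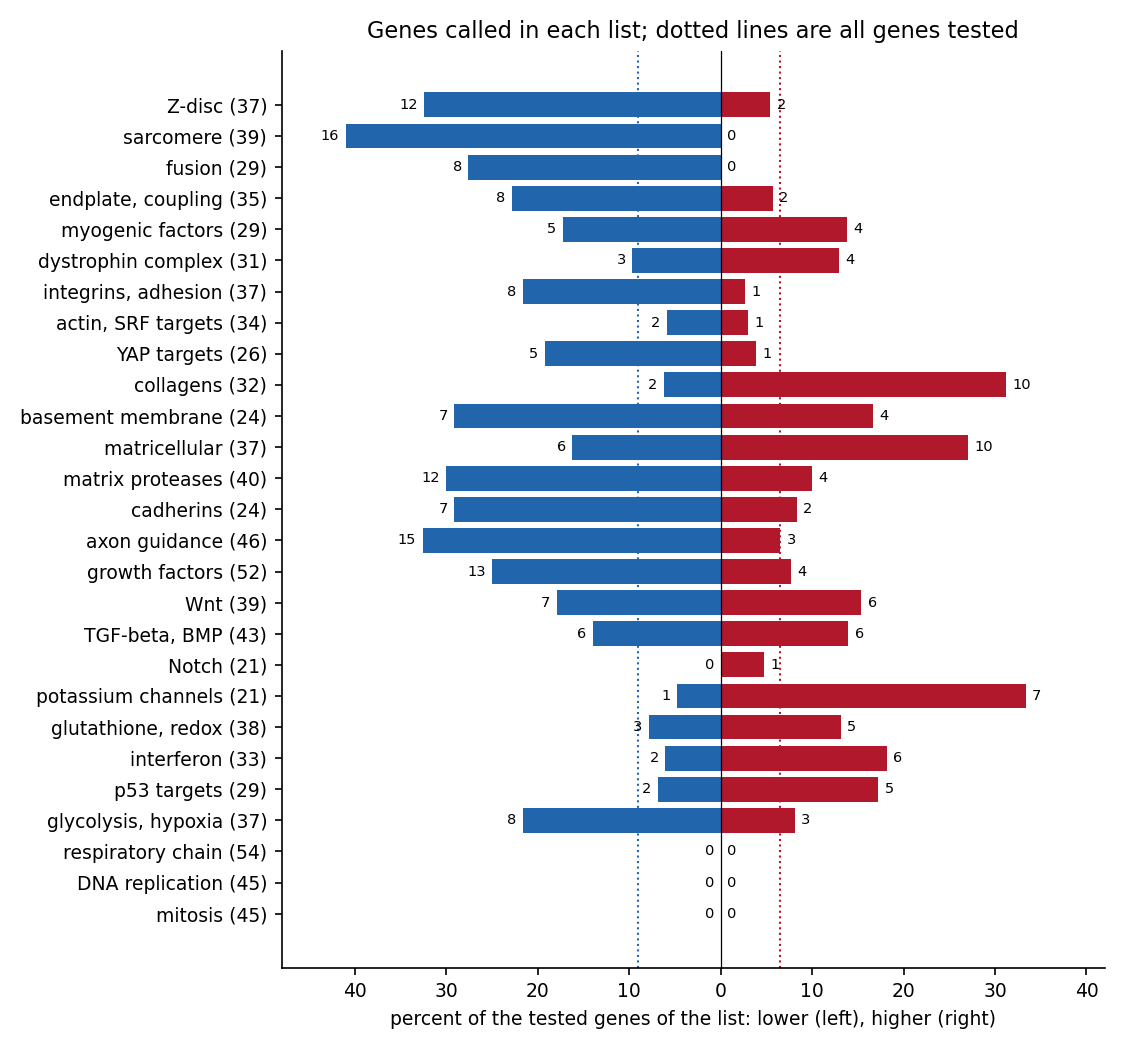
Share of the tested genes of 27 lists called lower (blue, left) or higher (red, right) in the knockout, in percent, with the number of genes beside each bar and the number tested in brackets; dotted lines mark 9.09% lower and 6.46% higher over all 13780 genes. The sarcomere list had the longest bar to the left and the potassium channel list the longest to the right.

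Markers of other cell types were read in the same libraries. Of 17 markers of neurons, Schwann cells and neural crest, 11 were tested, 6 were lower and 1 higher, and Sox10, Foxd3, Snap25 and Elavl4 had no count. Their sum ran from 737.6 to 1724.5 CPM in the wild type and from 254 to 372 CPM in the knockout. The mean sum fell from 1142 to 340 CPM. Much of this fall was in the neurofilament gene Nefl (233, 405, 125 and 791 CPM against 0.549, 20.1, 6.32 and 33.0 CPM) and in Tubb3 (from 304 to 45.5 CPM). Most of the knockout sum came from other markers. Of 13 fibroblast markers, Pdgfra was higher of 9 tested (a call lost without knockout replicate 1 or wild-type replicate 3; 2 higher and 1 lower with the block, 1 lower without knockout replicate 1, knockout replicate 4 or wild-type replicate 4), Lum, Dpp4 and Tcf21 had no count, and the sums overlapped (166 to 369 CPM in the wild type, 244 to 486 CPM in the knockout). Of 11 adipocyte markers, Cebpa rose from 24.6 to 83.4 CPM and Adipoq, Cidec, Cidea, Lep and Retn had no count. The sums were 47.1 to 146 CPM and 122 to 190.1 CPM. Of 16 bone, cartilage and tendon markers, Mkx rose from 0.461 to 9.89 CPM and Dmp1 fell from 2.66 to 0.273 CPM (1 higher and 2 lower with the block), with sums of 2697 to 3941 CPM and 1355 to 6773 CPM. None of 11 smooth muscle markers was called (7 tested, 1 higher with the block), with sums of 1799 to 5395 CPM and 3292 to 7710.0 CPM. Of the endothelial markers Sox18 rose from 0.148 to 2.46 CPM and Kdr, with 0.358, 1.04, 0.679 and 0.574 CPM in the wild type, had no count in the knockout (adjusted p = 0.00823, and 0.0552 with the block). Tie1, Emcn, Erg and Sox17 had no count, and the sums were 2.87 to 4.95 CPM and 3.16 to 8.79 CPM. Of the leukocyte markers the macrophage gene Cd68 was at 6.27, 7.40, 6.16 and 5.38 CPM in the wild type and 0.549, 1.86, 1.66 and 1.39 CPM in the knockout (log2 difference -2.21, SE 0.37, adjusted p = 0.00222), without overlap and called in all 8 fits without 1 library. The lysozyme gene Lyz2 rose from 0.0179 to 0.807 CPM. Adgre1, Cd3e and Fcgr1 had no count, and the sums were 17.1 to 28.6 CPM and 16.6 to 22.2 CPM. None of 13 germ cell and pluripotency markers was tested. Of 12 epithelial markers, Krt14 rose from 19.0 to 95.8 CPM (a call lost without wild-type replicate 5) and Cdh1, Cldn3 and Cldn4 fell, with sums of 46.0 to 157 CPM and 70.2 to 149 CPM. The part of other cell types in the results was not tested.

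Much of the difference was present after serum withdrawal, on days measured in other libraries. Of the 890 genes higher in growth, 636 (71.5%) were higher on day 1, which is 57.0% of the 1116 genes higher on that day (8.1% of all tested). On days 2, 4 and 6 the shared genes were 467, 462 and 446, of 1053, 1830 and 1997 higher genes (7.64%, 13.3% and 14.5% of all tested). Of the 1252 lower genes, 913 (72.9%) were lower on day 1, or 66.7% of the 1368 lower on that day (9.93%). The shared genes on days 2, 4 and 6 were 714, 689 and 637, of 1414, 1961 and 1983 (10.3%, 14.2% and 14.4%). Genes called in the opposite direction numbered 0 on day 1 for either set, and 34 of the higher and 51 of the lower set on day 6. In all, 321 genes were higher and 504 lower on all 5 days, or 533 and 725 with the block, while 186 higher and 248 lower genes were called that way on no later day. Rhox5, Srpx2, Npnt and Flnc kept their difference on every day (log2 difference 9.52, 10.07, 9.07 and 8.42 on days 1, 2, 4 and 6 for Rhox5, 3.28, 3.61, 3.17 and 2.85 for Srpx2, -4.71, -5.12, -4.49 and -4.57 for Npnt).

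The change of the difference, the mean of the 4 later days minus day 0, passed the edgeR test for 752 genes (5.46%), or 2170 with the block, 468 without knockout replicate 3 and 486 without wild-type replicate 1. Of the genes called at day 0, 221 passed it. Among the lower ones the difference became more positive for 112 and more negative for 25, and among the higher ones more positive for 31 and more negative for 53. Vcam1, the adhesion receptor of myoblasts, was at 166, 88.3, 91.0 and 113 CPM in the growing wild type and 74.8, 22.0, 26.4 and 35.3 CPM in the growing knockout (log2 difference -1.53), and its difference was -0.47, 1.10, 2.74 and 3.31 on days 1, 2, 4 and 6 (change 3.20, adjusted p = 4.83e-06). Errfi1, a feedback inhibitor of the epidermal growth factor receptor, went from -2.10 in growth to -1.31, -0.49, 0.70 and 0.45, and Ackr3 from -2.64 to -2.33, -0.62, 0.28 and 0.37. Cmtm3 turned from -0.88 to 1.83 on day 6. The difference of Id3 grew from 1.40 to 7.43 on day 4 (change 4.29, adjusted p = 1.31e-05). In the other direction, Cavin4, a caveolar protein of muscle, was at 75.8, 51.5, 44.1 and 71.2 CPM in the growing wild type and 131, 128, 144 and 112 CPM in the knockout (log2 difference 1.08), and at 0.72, -0.42, -1.61 and -1.71 later. Arhgef6 went from 2.07 to -3.83 on day 6, Rtkn2 from 1.26 to -2.37, Bpgm from 0.96 to -0.81 and Pea15a from -0.65 to -2.79. Day 0 enters the choice of these genes, and the test of the change shares the day 0 libraries with it.

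**Figure D4:**
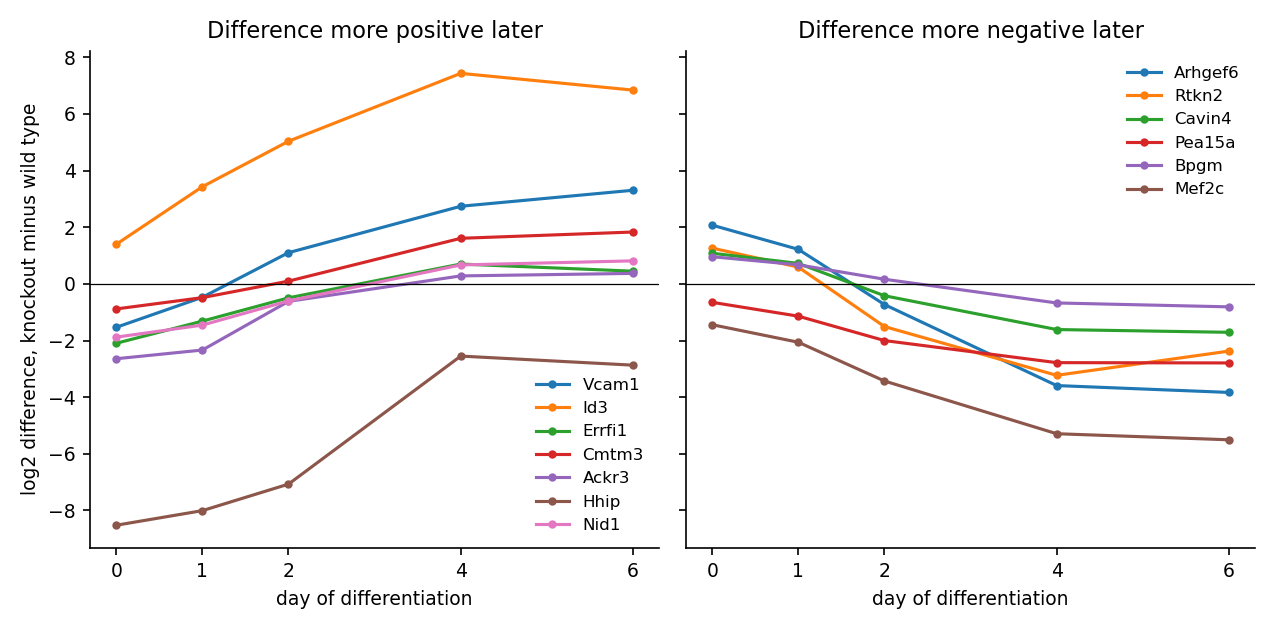
Log2 difference between knockout and wild type (vertical axis) on days 0, 1, 2, 4 and 6 of differentiation (horizontal axis), 1 line per gene; the left panel holds 7 genes whose difference became more positive after day 0 and the right panel 6 whose difference became more negative. Vcam1 went from -1.53 to 3.31 and Arhgef6 from 2.07 to -3.83.

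Genes that the wild type itself regulated in differentiation were set beside the difference in growth, using wild-type day 6 against day 1. These are not the libraries compared at day 0, though both comparisons share an estimate of spread. The wild type raised 2260 genes (16.4%) and lowered 3146 (22.8%). Of the raised genes, 174 (7.7%) were higher and 211 (9.34%) lower in the growing knockout, against 6.46% and 9.09% over all genes tested. The share of lower genes among those raised was thus near that over all genes. Of the lowered genes, 183 (5.82%) were higher and 433 (13.8%) lower, and of the 8374 others 533 (6.36%) and 608 (7.26%). The medians of the difference at day 0 were 0.03, -0.11 and 0.01. The lower genes shared with those raised in the wild type numbered 134 without wild-type replicate 5. Tead4 (log2 change 2.16 from day 1 to day 6 in the wild type), Chrnd (1.37) and Myog (2.74) were raised in the wild type and lower in the growing knockout. Cd44 (-1.51) was lowered in the wild type and lower in the growing knockout.

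The difference was unequal over the chromosomes. The median log2 difference was 0.45 for 431 genes of chromosome 16 (88 higher, 20 lower) and 0.32 for 857 genes of chromosome 4 (125 higher, 40 lower), 0.21 on chromosome 10 and 0.20 on chromosome 11. It was -0.40 on chromosome 3 (28 higher, 136 lower of 688), -0.34 on chromosome 13 (15 and 104 of 514), -0.33 on chromosome 18 (9 and 82 of 371), -0.23 on chromosome 2 (31 and 142 of 1090) and -0.14 on chromosome 5 (19 and 97 of 861). Chromosomes 4 and 16 held 9.35% of the genes tested and 23.9% of the higher ones; chromosomes 3, 13 and 18 held 11.4% of the genes and 25.7% of the lower ones. In windows of 20 Mb with at least 20 genes tested, the median was above 0 in 8 of 8 windows of chromosome 4 (0.15 to 0.47) and below 0 in 8 of 8 windows of chromosome 3 (-0.49 to -0.31), 6 of 6 of chromosome 13 (-0.42 to -0.18), 10 of 10 of chromosome 2 (-0.38 to -0.08) and 8 of 8 of chromosome 5 (-0.38 to -0.09). On chromosome 4 the medians of the 4 knockout libraries against the wild-type mean were 0.28, 0.29, 0.29 and 0.35. On chromosome 13 wild-type replicate 4 was itself at -0.31, within the span of the knockout (-0.48 to -0.28), and on chromosome 18 at -0.27 (knockout -0.39 to -0.21). Without that library the medians were -0.42 for chromosome 13 and -0.39 for chromosome 18. The medians of chromosome 4 were 0.35, 0.30, 0.32 and 0.30 on days 1, 2, 4 and 6 and those of chromosome 3 were -0.36, -0.40, -0.33 and -0.32, while that of chromosome 18 went to -0.01 by day 6. After centring each chromosome on its median, 701 genes were higher and 1045 lower, and 1537 of the 2142 calls were kept. Copy number was not measured in these libraries, and its part in these differences was not tested.

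On chromosomes 2 and 16 knockout replicate 1 stood apart. On chromosome 2 the medians of knockout replicates 1, 3, 4 and 5 against the wild-type mean were -0.04, -0.24, -0.29 and -0.29, with the wild-type libraries between -0.01 and 0.05. Without knockout replicate 1 the median difference of chromosome 2 was -0.30. On days 1, 2, 4 and 6 knockout replicate 1 was at -0.02, -0.01, 0.02 and 0.00 on chromosome 2, and the other knockout libraries were between -0.36 and -0.14. On chromosome 16 the medians of knockout replicates 1, 3, 4 and 5 were 0.04, 0.44, 0.56 and 0.70. Its windows up to 60 Mb had medians of 0.50 to 0.64 and those past 60 Mb -0.08 and -0.34, a boundary chosen after these values were seen. For the 334 genes of the first 60 Mb, the 4 knockout libraries stood at 0.09, 0.61, 0.69 and 0.82, and the wild-type libraries between -0.10 and 0.07. The same replicate number stood apart there on every later day: knockout replicate 1 was at 0.07, 0.05, 0.18 and 0.07 on days 1, 2, 4 and 6, and the other knockout libraries between 0.60 and 0.89. Of the 334 genes, 86 were higher and 11 lower, or 114 and 8 without knockout replicate 1 (median 0.57, and 0.72 without it). Past 60 Mb the median of 97 genes was -0.30. There wild-type replicate 4 was itself at -0.36, within the span of the knockout (-0.38 to -0.05). Fstl1, Kcnj15, Mylk, Jam2, Gap43 and Dnajb11 are on this chromosome. Knockout replicates 1, 3, 4 and 5 had 1798, 1296, 2179.5 and 1391 CPM of Fstl1 and 124, 249.7, 200.4 and 196 CPM of Dnajb11. Fstl1 of replicate 1 lay within the span of the others, and Dnajb11 (wild type 105, 112, 99.2 and 103 CPM) was lowest in replicate 1.

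**Figure D5:**
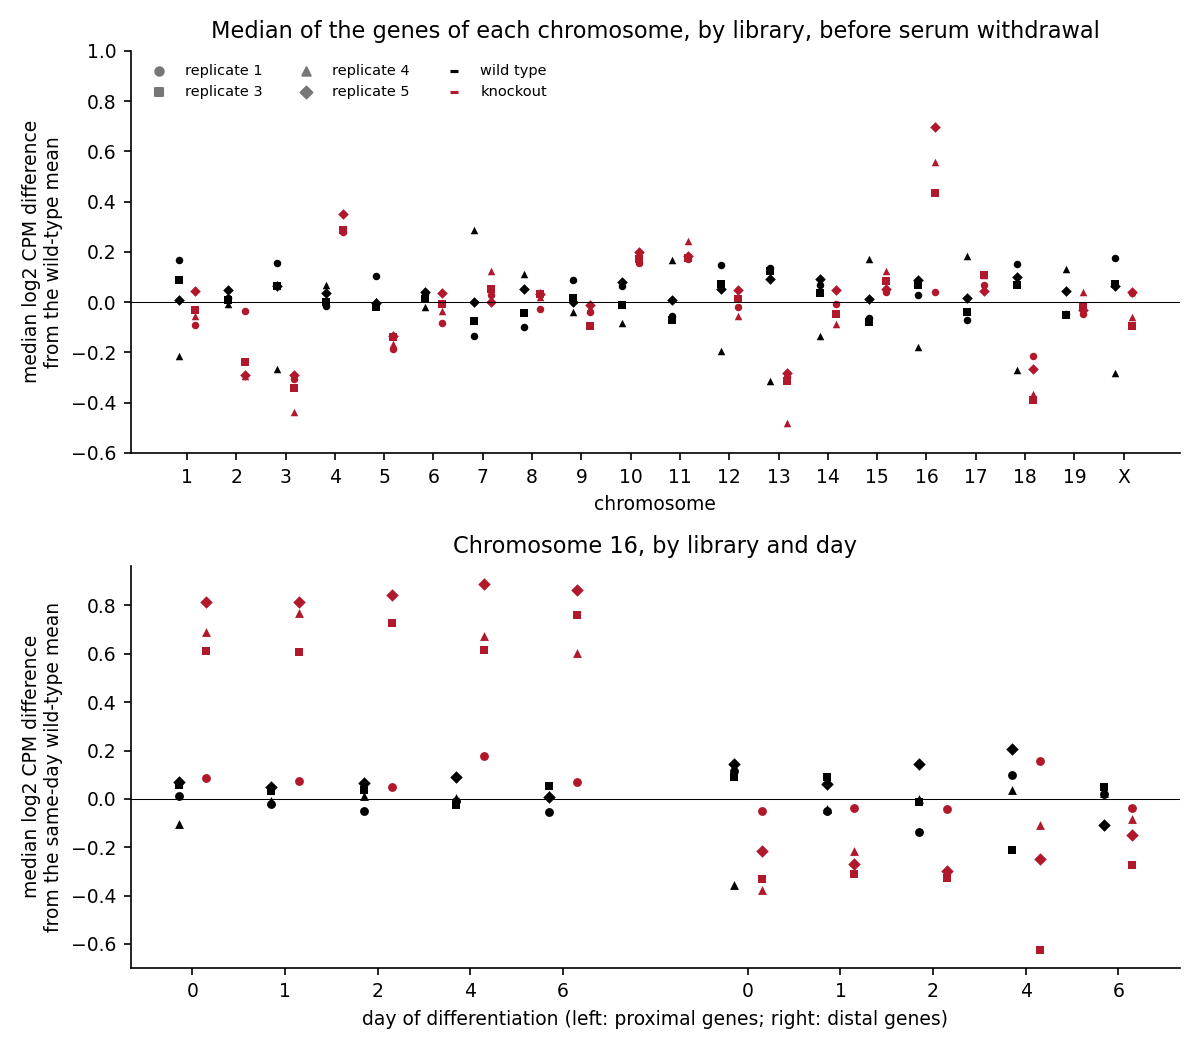
Top, median log2 CPM difference from the wild-type mean of the genes of each chromosome in each library (black, wild type; red, knockout; marker shape, replicate number); bottom, the same for the proximal (left) and distal (right) genes of chromosome 16 on each day, split at the boundary given above. Knockout replicate 1 (circle) stays between 0.05 and 0.18 for the proximal genes on all 5 days, where the other knockout libraries lie between 0.60 and 0.89.

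Around the edited gene, on chromosome 6 of GRCm38 (Flnc at 29433256 to 29461883, plus strand), 21 other genes within 1 Mb were tested. Of these 1 was higher and 2 lower, with a median log2 difference of -0.11. Irf5, an interferon regulatory factor, was at 1.47, 2.15, 4.76 and 0.215 CPM in the wild type and 8.04, 11.1, 16.8 and 11.7 CPM in the knockout (log2 difference 2.48, SE 0.85, adjusted p = 0.00661). Strip2 was at 10.0, 8.06, 7.28 and 8.18 CPM against 1.92, 1.86, 4.14 and 3.01 CPM (log2 difference -1.61, SE 0.28, adjusted p = 0.00135), and Fam71f1 fell from 3.02 to 0.636 CPM. The 2 direct neighbours tested, Ccdc136 (adjusted p = 0.435) and Atp6v1f (adjusted p = 0.564), did not pass the test.

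Genes of germ cells, imprinting and chromatin were read because Rhox5 and Magea6 headed the ranking. Of 11 tested genes of the X-linked reproductive homeobox, MAGE and Xlr families, 6 were higher and none lower by edgeR or DESeq2, and 18 further genes of that list were not tested. Magea3 was at 0.0358, 0.104, 0 and 0.143 CPM in the wild type and 2.16, 9.84, 9.95 and 14.0 CPM in the knockout, and Xlr3a rose from 0.1255 to 5.30 CPM; these genes have near-identical copies. Of 18 imprinted genes, 5 were lower and 1 higher. Mest fell from 3.23 to 0.108 CPM, Usp29 from 6.77 to 1.58 CPM (log2 difference -2.10, SE 0.21, adjusted p = 2.93e-05) and Peg3 from 317 to 109 CPM. The lower count was 3 without knockout replicate 3, knockout replicate 5 or wild-type replicate 1, and none was higher without knockout replicate 1 or 4 or wild-type replicate 1 or 3. Of 24 genes of DNA methylation and its readers, 2 were lower, Hdac9 (from 9.71 to 1.42 CPM) and Setdb1 (from 66.8 to 47.5 CPM, a call kept in 3 of the 8 fits without 1 library), and 1 was higher and 6 lower with the block. Without wild-type replicate 4, 2 were higher and 5 lower, and 1 was higher without knockout replicate 3 or 5. The unblocked shares of this list were under those over all genes tested (6.46% higher and 9.09% lower). Of 22 HOX genes, 2 were higher and 4 lower. Hoxc6 rose from 6.29 to 12.8 CPM and Hoxc13 from 9.54 to 21.2 CPM. The lower count was 1 without knockout replicate 1 or wild-type replicate 1, and 2 without knockout replicate 5, wild-type replicate 3 or wild-type replicate 5. Of 12 leukocyte protease and chitinase-like genes, 5 were lower and 1 higher, and none was higher without knockout replicate 3, 4 or 5 or wild-type replicate 1, 3 or 5. Gzme, a granzyme gene, had 4.70, 5.25, 7.72 and 16.2 CPM in the wild type and no count in the knockout (at least 274-fold lower), and Clca3b fell from 9.43 to 0.0427 CPM. Mcpt8 is also of this list. Of the markers of leukocytes, Ptprc, Kit and Fcer1a were at or near 0 in both lines. Cd68 was lower and Lyz2 higher in the knockout, as given above. The part of such cells was not tested.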

How the data were processed

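RNA of growing wild-type and FlncKO C2C12 cells was sequenced (TruSeq Stranded mRNA, Illumina sequencer, 51 bases, per the labels' protocols). The deposited values are raw counts per gene. The submitters' processing notes name FastQC 0.11.9, STAR 2.7.9, featureCounts 2.0.3 and DESeq2, with builds GRCm38 and GRCh38; the annotation, the strand setting and how mates were counted are not given in the sources used here, so reads of overlapping and antisense genes may be shared. 1 column of the table matched no sample and was not used. The 29980 gene IDs were named from GENCODE vM21.

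The model covered the counts of all 39 libraries (edgeR 4.0.16 under R 4.3.3, with limma 3.58.1): TMM scaling, filterByExpr by group (13780 genes kept), 1 mean per genotype and day, robust quasi-likelihood F-test, Benjamini-Hochberg adjustment over all genes tested, called at an adjusted p under 0.05. SEs come from log2 CPM with a prior count of 2. "Not overlapping" means every knockout library lies on 1 side of every wild-type library. The floor for a group without a count was 3 counts over the group; 61.9% of the day 0 counts above 0 were even, so that a fragment may have been counted as 2 reads, and the fit on halved counts gave 929 higher and 1302 lower genes. Alternatives used DESeq2 1.42.0, other scalings and filters, a replicate block and fits without each library. Same-numbered libraries of the lines deviated together at day 0 (correlations 0.20, 0.14, 0.33 and 0.25 for replicates 1, 3, 4 and 5). Unlike-numbered pairs ran from -0.38 (wild-type replicate 4 with knockout replicate 5) to 0.28 (wild-type replicate 3 with knockout replicate 5). Wild-type replicate 5 with knockout replicate 3 had 0.19, so the number was not the best match for replicate 3. The pairing was taken from the data and remains uncertain. Blocked values are given where they move a count by over 1.5 times. The scripts were tested on simulated counts.

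Named genes were the 10 most raised and 10 most lowered protein-coding genes at 5 CPM or more without overlap, the 10 largest gains and losses in CPM, the members of fixed lists, the 5 largest changes over days each way and the genes within 1 Mb of Flnc; within lists, members were chosen to be named after their values were seen. Members and gene lists were chosen with earlier results of these data known. Some genes that the rule names are not reported here. Start regions are from RefSeq (GRCm38.p6).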

Additional observations from a re-analysis of the deposited data

Results flagged for a closer look

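Of 114 groups of 4 libraries examined, 9 had a library far from the other 3 by Dixon's criterion, where chance gives about 1 in 20 for continuous values. A group with a count in only 1 library is always flagged, so that rate does not apply to it. Such were Magea6 in the wild type and Mcpt8, Ngfr and Setbp1 in the knockout, whose flags were fixed in advance. In wild-type replicate 4, Magea6 was at 0.194 CPM (0 in the others), Fth1 at 2601.5 CPM (1750 to 1869), Mki67 at 111 CPM (347 to 405) and the number of genes with a count at 14565 (15033 to 15106). In knockout replicate 4, Mcpt8 was at 0.0854 CPM, Ngfr at 0.171 CPM and Setbp1 at 0.171 CPM, each 0 in the other knockout libraries, and Srpx2 at 657 CPM (426 to 453). In knockout replicate 3, Fth1 was at 3773.3 CPM (2719 to 2850). The 3 values of knockout replicate 4 next to 0 rest on very few counts.

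For 20 genes named in the report the difference between the lines on the later days differed from that at day 0 by the edgeR test of that change (log2 scale, mean of later days minus day 0). It became more positive for Id3 (4.29, adjusted p = 1.31e-05), Hhip (3.40, adjusted p = 0.0453), Kcnj15 (3.23, adjusted p = 5.99e-04), Vcam1 (3.20, adjusted p = 4.83e-06), Col6a1 (2.98, adjusted p = 0.0118) and Pax7 (2.83, adjusted p = 0.0385). The same held for Id2 (2.50, adjusted p = 6.91e-06), Id1 (2.15, adjusted p = 1.25e-04), Ackr3 (2.07, adjusted p = 7.72e-05), Errfi1 (1.93, adjusted p = 1.28e-05), Nid1 (1.74, adjusted p = 0.0103), Cmtm3 (1.65, adjusted p = 7.60e-05), Myod1 (1.00, adjusted p = 0.0116) and Cd44 (0.86, adjusted p = 0.0495). It became more negative for Arhgef6 (-3.81, adjusted p = 1.18e-05), Rtkn2 (-2.89, adjusted p = 1.65e-05), Mef2c (-2.63, adjusted p = 0.00248), Cavin4 (-1.84, adjusted p = 1.18e-05), Pea15a (-1.53, adjusted p = 8.16e-05) and Bpgm (-1.12, adjusted p = 2.11e-04).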

How the results depend on the processing

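The fits tried were DESeq2, its size factors, totals without TMM, no filter, day 0 libraries alone, the replicate block, a test against 1.5-fold, halved counts, centring by chromosome (chosen after seeing the data) and 8 fits without 1 library. With the replicate block, which pairs libraries of the same number, 1817 genes were higher and 2179 lower, 533 were higher on all 5 days and 2170 changed over days; it moved the other counts over all genes by at most 1.5 times, and those of lists as given in the report. Day 0 alone, without the spread of the other days, gave 577 higher and 844 lower genes, and the test against 1.5-fold 324 higher and 620 lower. Leaving out 1 library gave 476 (wild-type replicate 5) to 1294 (wild-type replicate 4) higher and 917 to 1585 lower genes, 228 to 357 higher and 417 to 520 lower on all 5 days, 134 to 311 lower genes raised in the wild type, 294 to 443 lower genes lowered in it, and 468 to 924 genes changed over days. Of 162 named genes, 151 were called, and 116 of these stayed called under each of the 19 settings in which they were tested. Some called genes were not tested in the fits of the day 0 libraries alone or of halved counts. The direction reversed, without a call, for Myod1 (0.042 without TMM, 0.0096 with the replicate block, 0.022 with it at day 0 alone, 0.0085 without knockout replicate 3, 0.10 without knockout replicate 5, -0.14 to 0.22 over the fits without 1 library), Id1 (-0.021 without knockout replicate 3, up to 0.45 without knockout replicate 4), Id2 (-0.0079, -0.07, -0.0082 and -0.10 without knockout replicates 1 and 3 and wild-type replicates 3 and 5, up to 0.15 without wild-type replicate 1) and Des (0.0003 with the block, 0.013 with it at day 0 alone, 0.04 without knockout replicate 5, 0.40 without wild-type replicate 4, down to -0.35 without knockout replicate 4). The cause was not tested. Depth limits genes under about 1 CPM, whose differences rest on few counts.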
